A study of Mus musculus with 2 samples.

Results

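Plasmacytoid dendritic cells of the fibrotic mouse liver are described here from 389 of 20753 cell barcodes in single-cell RNA sequencing. The members were chosen by their own transcripts. Barcodes were kept from 500 unique molecular identifiers (UMIs) and 300 genes upward, if less than 20% of UMIs were mitochondrial. A kept barcode was a member if it held at least 2 UMIs of Siglech and at least 1 UMI of Ccr9, Cox6a2, Klk1 or Pacsin1. It also had to hold no UMI of Cd209a, Cd79a, Cd3e or S100a8. These 9 genes therefore chose the cells, and their levels are given as a description only.

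The study gave mice the hepatotoxin carbon tetrachloride (CCl4), which scars the liver, and its title names gut-derived indole propionic acid (IPA), liver fibrosis and macrophages. There were 2 groups with 1 library each, CCl4 and CCl4+IPA, and both carry the CCl4 injury. No library of uninjured liver was analysed here, and the labels give no strain, age, dose, time or number of animals. Liver was dissociated with collagenase, papain and DNase, red cells were lysed and dead cells were depleted. With 1 library per group there is no replicate error, so no test was run and no p-value is given. The 95% intervals cover counting error only.

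Plasmacytoid dendritic cells are a bone-marrow-derived lineage that senses viral and self nucleic acids through endosomal Toll-like receptors and is known for secreting type I interferon. The transcription factor Tcf4 (E2-2) sets the lineage, and inhibitory receptors such as Siglech and Bst2 restrain its interferon response. The cells resemble plasma cells in shape, carry a large secretory apparatus and often keep traces of lymphoid gene expression. They are a minor population of the healthy and injured liver.

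The CCl4 library held 205 members among 10294 kept barcodes, 1.99% (exact interval 1.73 to 2.28%). The CCl4+IPA library held 184 among 10459, 1.76% (1.52 to 2.03%). The share was 0.883 times as high in the IPA library (0.720 to 1.08), an interval that includes equal shares. The depth of a barcode bears on the rule both ways, since Siglech and a second marker must be seen and 4 genes must not. With every barcode thinned to 1000 UMIs before the rule, the shares were 2.67% and 2.30%, a ratio of 0.859 (0.716 to 1.03). Members held a median of 6802 UMIs and 2414 genes in the CCl4 library and 5938 UMIs and 2418 genes in the IPA library. The median mitochondrial share was 3.09% and 1.66%. The 18S ribosomal RNA gene took 6.72% of members' UMIs in the CCl4 library but 1.31% under IPA, and ribosomal protein genes took 17.2% and 14.2%. The libraries shared 22 kept barcodes, none of them members. Scrublet, a doublet caller, marked 8 and 2 members.

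The 4 genes required to be absent removed more barcodes than they left. Without that condition 465 barcodes (4.52%) and 386 barcodes (3.69%) qualified, and the share in the IPA library was 0.817 times as high (0.712 to 0.937). The condition thus took away 55.9% and 52.3% of them. Cd209a, a lectin of conventional dendritic cells, was present in 146 and 89, and S100a8, an abundant neutrophil transcript, in 137 and 117. Of the latter, 94 and 89 barcodes held exactly 1 UMI. Across all kept barcodes S100a8 was seen in 32.1% and 30.7%. The barcodes taken away were deeper, with medians of 7717 and 6800.5 UMIs, and held as much of the lineage factor Tcf4 (medians of 19 and 21 UMIs, against 17 and 19 in members). The part of free RNA and doublets in these numbers was not tested.

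At the edge of the rule the numbers were small. With exactly 1 Siglech UMI, 6 and 5 barcodes stood just outside, with a median of 0.5 and 4 Tcf4 UMIs. With 2 or 3 Siglech UMIs, 7 and 7 stood just inside, with a median of 7 and 9 Tcf4 UMIs. All 4 of the alternative markers were present in 117 of 205 and 88 of 184 members. Siglech, an inhibitory sialic-acid-binding lectin, ranged from 2 to 61 UMIs per member with a median of 18 in the CCl4 library, and from 2 to 55 with a median of 16 in the IPA library. Most members lie far above the limit in both libraries.

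**Figure D1:**
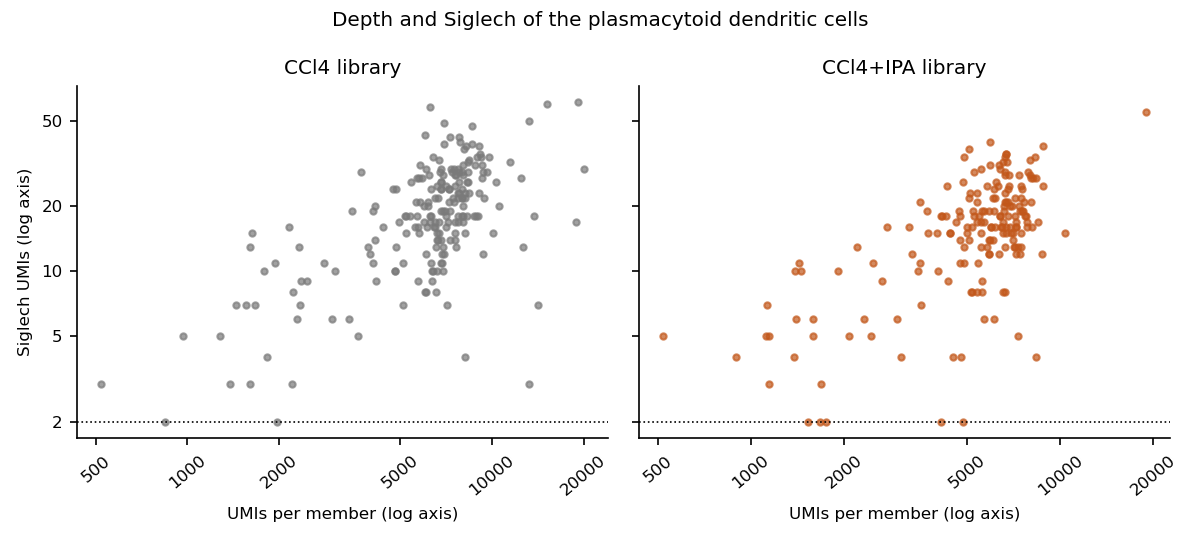
Each point is 1 member, placed by its total UMIs (x axis, log) and its Siglech UMIs (y axis, log), with the limit of 2 UMIs dotted. Members lie around medians of 6802 UMIs and 18 Siglech UMIs (CCl4) and 5938 and 16 (CCl4+IPA), and few lie near the limit of 2.

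Among the rule's markers, Siglech stood at 2999 UMIs per 1000000 (CPM) over the members of the CCl4 library and 3013 CPM in the IPA library. Ccr9, the chemokine receptor that directs these cells to the gut and thymus, stood at 1270.4 and 1986 CPM. Klk1, a tissue kallikrein, stood at 913 and 1616 CPM, Cox6a2, a cytochrome oxidase subunit, at 1305 and 1255 CPM, and Pacsin1, an endocytosis adaptor, at 223 and 211 CPM. Ccr9 and Klk1 were higher in the IPA library, and the other 3 were nearly level.

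Defining genes of the lineage that the rule did not name were also high, which is again a description of chosen cells. Tcf4 was seen in all 205 and all 184 members, at 2568 and 3419 CPM. Irf8, the interferon regulatory factor of dendritic cell development, was at 3408 and 4256 CPM and Bst2, the interferon-inducible surface antigen, at 3619 and 3698 CPM. Runx2, which lets these cells leave the bone marrow, was at 998 and 1173 CPM. B cells, by comparison, held 290 and 357 CPM of Tcf4, 370.4 and 464 CPM of Irf8, and 62.2 and 67.4 CPM of Bst2.

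The classes used for comparison are also gates on a few UMIs, not clusters. The nearest was a class with Siglech and Cd209a together (103 and 56 cells). Next came a Cd209a-positive, Siglech-negative class of dendritic cells (162 and 39 cells), and B cells (2878 and 2462 cells). These folds describe cells chosen by expression and are not tests.

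Members and the Siglech and Cd209a double-positive cells differed by 4-fold in very few genes. Of 8482 genes measured, 1 (0.0118%) was at least 4-fold higher in members in both libraries and 2 (0.0236%) were at least 4-fold lower. The gene higher in members was the gene model Gm45838, with 9 and 24 UMIs in members and 1 and 2 in double-positive cells. Its folds thus rest on very few UMIs of the double-positive cells. The genes lower in members were Id1, an inhibitor of E proteins (13 and 3 UMIs in members, 36 and 14 in double-positive cells), and Gimap3 (6 and 7, against 14 and 14). They are named after their values were seen. Tcf4 stood at 2657 and 3193 CPM in the double-positive cells, Irf8 at 3041 and 4212 CPM, and Ccl4 at 4577 and 7973 CPM. When all 8 other classes were compared, no gene reached 4-fold over each of them in both libraries. Leaving out the double-positive cells, a choice made after seeing the data, 53 genes did. Both rankings took only genes with at least 100 CPM in members, and the number of genes ranked is not given here.

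Of those 53, P2ry14, a receptor for UDP-sugars, stood furthest apart, at 493 and 796 CPM in members, 44.8-fold and 19.7-fold over the next class. Ctsl, a lysosomal cysteine protease, was at 1278 and 1242 CPM, 15.6-fold and 17.7-fold over monocytes or macrophages. Lair1, a collagen-binding inhibitory receptor, was 11.3-fold and 18.5-fold higher than in the next class. Smim5, a small membrane protein, was 15.2-fold and 12.4-fold higher. Cd300c, a lipid-binding receptor, was 30.3-fold and 9.75-fold higher, and Runx2 15.6-fold and 7.91-fold higher. Bst2 was 9.59-fold and 11.4-fold higher than in the next class. Tcf4 was 6.94-fold and 6.67-fold higher than in the next class, plasma cells, of which there were only 14 and 6.

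Against Cd209a-positive, Siglech-negative dendritic cells, 392 of 9019 genes (4.35%) were at least 4-fold higher in members in both libraries and 370 (4.10%) at least 4-fold lower. Ly6d, a lymphoid-lineage surface protein, stood at 1981 and 2398 CPM in members and at 1.98 and 3.06 CPM there. Atp1b1, a sodium pump subunit, was at 739 and 702 CPM against 1.98 and 3.06 CPM. Cd4 was at 223 and 501 CPM against 0.660 and 3.06 CPM. On the other side stood myeloid genes. Lyz2, the lysozyme of macrophages, was at 13.1 and 8.74 CPM in members and at 1210.0 and 874 CPM in the Cd209a-positive cells. Il1b was at 21.04 and 28.2 CPM against 1378 and 2354 CPM, and Ifitm3, an antiviral membrane protein, at 117 and 57.3 CPM against 2629.8 and 2935 CPM.

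Against B cells, 698 of 11994 genes (5.82%) were at least 4-fold higher in members and 384 (3.20%) at least 4-fold lower. Dntt, the terminal transferase of antigen receptor rearrangement, stood at 194 and 187 CPM in members, and B cells held no UMI of it in the CCl4 library and 0.303 CPM in the IPA library. Cd300c stood at 333 and 394 CPM against 0.545 and 0.757 CPM in B cells, and the lectin-like receptor Klra17 at 152 and 191 CPM against 0.327 and 0.606 CPM. The B cell genes Ms4a1 (CD20), Ebf1 and Pax5 were close to absent from members. Ms4a1 was at 0.726 and 2.91 CPM against 872 and 979 CPM in B cells. Ebf1 was at 2.18 and 8.74 CPM against 1944 and 2477 CPM.

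**Figure D2:**
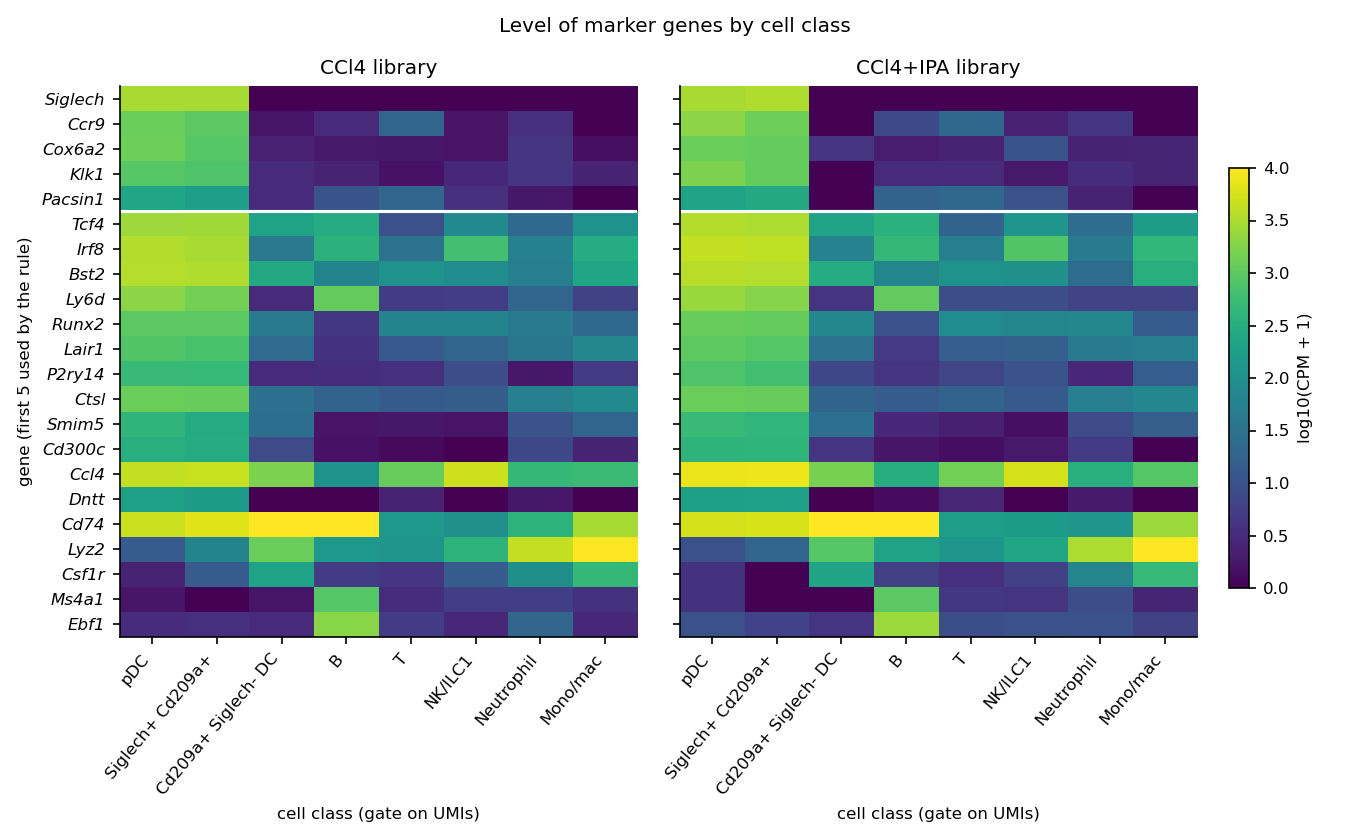
Level of each gene (rows) in 8 cell classes (columns) of each library, as log10(CPM + 1), with the colour scale ending at 4, and the 5 genes used by the rule above the white line. Tcf4, for example, stands at 2568 and 3419 CPM in members and at 2657 and 3193 CPM in double-positive cells, and Ms4a1 at 0.726 and 2.91 CPM in members against 872 and 979 CPM in B cells.

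Some transcripts of the B lineage were high in members all the same. Ighm, the constant region of IgM, stood at 1142 and 1459 CPM, and Iglc3, a lambda light chain constant region, at 1051 and 1226 CPM. To set shares side by side, each cell was thinned to 1000 UMIs, which left out 3 and 2 members. Iglc3 was then seen in 52.5% (45.3 to 59.5%) and 58.8% (51.3 to 66.0%) of members, against 0.313% and 0.530% of T cells. Unthinned, the shares of members were 84.4% and 86.4%. Ighm was seen in 68.3% and 74.7% of members and in 13.97% and 21.4% of T cells. Dntt was seen in 13.9% and 13.7% of members and in 0.125% and 0.265% of T cells. Iglc3, Iglc1 and Iglc2 are near-identical paralogs whose reads can be split between them. Among the 11 measured lymphoid genes, 3 were past 1.5-fold higher in the IPA library (Cd4, Igkc and Cd79b) and 1 lower (Iglc1, 71 and 32 UMIs, 14 of the latter in 1 member). The median log2 ratio was 0.35.

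Marker lists of other cell types were mostly low in members, and their part in the results was not tested. The 8 B cell markers summed to 52.2 and 92.2 CPM, against 6075 and 7032 CPM in B cells. The 8 T cell markers summed to 53.0 and 59.2 CPM, against 5320 and 5439 CPM in T cells. The 8 plasma cell markers summed to 68.9 and 146 CPM (Tnfrsf17 at 0) and the 8 neutrophil markers to 83.4 and 134 CPM. The 8 NK or ILC1 markers summed to 115 and 149 CPM. Of their UMIs, 59 of 159 (CCl4) and 108 of 153 (CCl4+IPA) lay in 1 member of each library. The 10 monocyte or macrophage markers summed to 233 and 161 CPM and the 8 hepatocyte markers to 100.1 and 84.5 CPM (Mup3 at 0). The 7 endothelial markers in the table summed to 242 and 364 CPM, with Stab2 and Ptprb at 0, against 157 and 260 CPM in B cells. Of these, Cdh5 stood at 112 and 167 CPM in members, against 0.764 and 1.21 CPM in B cells.

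Among dendritic cell lists, the 8 markers of conventional DC2 summed to 548 and 681 CPM (Clec4a4 and Fcer1a at 0) and those of conventional DC1 to 183 and 189 CPM (Itgae and Gcsam at 0). Those of migratory dendritic cells summed to 205 and 248 CPM (Ccl17 at 0), and those of transitional dendritic cells to 1001 and 1019 CPM. The DC2 marker Clec10a, a galactose-binding lectin, stood at 205 and 292 CPM in members, against 319 and 468 CPM in the Cd209a-positive class. Basophil or mast cell markers held 2 and 1 UMIs, with 7 of 8 at 0.

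A few single cells carried whole groups of genes. Erythroid or platelet markers summed to 508 CPM (CCl4) and 2.91 CPM (CCl4+IPA), and 614 of 685 haemoglobin UMIs of the CCl4 library lay in 1 member. Stellate cell or fibroblast markers summed to 68.9 and 2.91 CPM (Lrat, Reln and Acta2 at 0), and 1 member of the CCl4 library held 313 of the 323 UMIs of C3 and Dcn. No member of the IPA library held 3 or more UMIs of either group. The ratios of these genes thus describe single barcodes.

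The comparison of the libraries asks how members of CCl4 liver differed from members of CCl4+IPA liver. Of 7542 genes with at least 30 UMIs in members, 1189 (15.8%) were at least 1.5-fold higher in the IPA library. Another 323 (4.28%) were at least 1.5-fold lower. The counting interval left out a ratio of 1 for 779 of the higher and 161 of the lower genes. A gene named below as past 1.5-fold, above all one with few UMIs, can therefore have an interval that includes 1. The median log2 ratio over all measured genes was 0.17, and 67.1% of genes lay above 1. Of all genes past 1.5-fold, 78.6% were higher in the IPA library. When the all-gene median was set to 0 the counts became 628 and 606, and 50.9% were higher. The smaller share of ribosomal RNA, ribosomal protein and mitochondrial UMIs in the IPA library moves with this shift, and with those genes left out of the total the counts were 602 and 625. The ratios given next are uncentred, and each list is also given with the all-gene median set to 0. Each list's counts are to be read beside 15.8% higher and 4.28% lower, or, centred, beside 628 and 606 of 7542 genes.

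Genes were named as the 12 highest and 12 lowest ratios among those with at least 100 UMIs and 50 CPM in the higher library. Atf3, a stress-induced transcription factor, stood at 89.97 CPM in the CCl4 library and 305 CPM in the IPA library, 3.39-fold higher (2.74 to 4.21). It was detected in 17.6% and 27.7% of members. Thinned to 1000 UMIs the shares were 5.94% (3.11 to 10.1%) and 14.3% (9.55 to 20.2%), against 7.502% and 9.59% of B cells, so the share in the CCl4 library did not exceed that of B cells. Plaur, the urokinase receptor, stood at 170 and 491 CPM, 2.89-fold higher (2.47 to 3.39), and was detected in 48.8% and 77.2% of members. Adgrg5, an adhesion G-protein-coupled receptor, had the highest ratio at 4.02 (2.70 to 6.11), from 34 and 102 UMIs. Tent5c, a poly(A) polymerase of secretory cells, stood at 85.6 and 251 CPM.

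Cd4, the coreceptor that mouse plasmacytoid dendritic cells carry in part, stood at 223 and 501 CPM, 2.25-fold higher (1.95 to 2.60). Thinned to 1000 UMIs, 16.8% (11.9 to 22.7%) and 32.4% (25.7 to 39.7%) of members held a Cd4 UMI, against 0.105% and 0.288% of B cells. The intervals of the shares do not overlap, but they cover counting error in 1 library per group, and Cd4 was named for its high ratio. Unthinned, the shares were 53.2% and 72.8%. Plaur gave 15.3% (10.7 to 21.1%) and 37.4% (30.3 to 44.8%) of thinned members, against 0.125% and 0.530% of T cells.

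Other receptors among the 12 were P2rx4, an ATP-gated channel (71.8 and 162 CPM), and Gpr132, a lysolipid and lactate receptor (59.5 and 135 CPM). Tnfaip3 (A20), the ubiquitin editor that ends NF-kB signalling, was at 125 and 290 CPM, 2.33-fold higher (1.92 to 2.82). Nr4a1, an orphan nuclear receptor induced within minutes of stimulation, was at 167 and 367 CPM, and Csrnp1, a nuclear protein of the same response, at 62.4 and 135 CPM. Rgcc, a cell-cycle regulator, was at 92.9 and 218 CPM and Tagap, a GTPase-activating protein of lymphocytes, at 79.8 and 179 CPM.

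The 12 lowest ratios included 1 gene carried by 1 cell. C3, the complement component, had a ratio of 0.0903, but 244 of its 252 UMIs in the CCl4 library came from 1 member. Without the highest member of each library its log2 ratio was 1.42. Lars2, the mitochondrial leucyl-tRNA synthetase, stood at 668 and 209 CPM (ratio 0.312, 0.268 to 0.363), and was detected in 90.2% and 56.5% of members. H1f4, a linker histone, stood at 138 and 40.8 CPM (0.296, 0.207 to 0.415). Hspa1a, the inducible HSP70, stood at 126 and 46.6 CPM (0.369, 0.262 to 0.511).

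The other 8 were closer to the limit, with ratios between 0.546 and 0.642. They were Marcks, a substrate of protein kinase C (107 and 58.3 CPM), the histone gene H2bc4 (99.4 and 55.3 CPM), Id3, which blocks E proteins such as Tcf4 (165 and 99.0 CPM), and Ramp1, a coreceptor for the neuropeptide CGRP (250.3 and 153 CPM). The remaining genes were the HSP70 cochaperone St13, the nuclear body protein Sp140, the helicase Wrn and the mitochondrial ribosomal protein gene Mrpl43. In each of these 8, fewer members of the IPA library held a UMI. Thinned to 1000 UMIs, Id3 lay the other way at a log2 of 0.21, and Ramp1 and St13 were within 1.5-fold, both at -0.31. With no gene required to be absent, Wrn, Mrpl43, Sp140 and St13 were within 1.5-fold, at -0.12, -0.14, -0.36 and -0.57.

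Genes whose CPM in some other class was more than 10 times the members' in both libraries formed a separate ranking, since free RNA reaches every droplet. Because both libraries must pass, a gene that differs between them can stay in the first ranking through 1 library, as Atf3, Hspa1a, Id3, Marcks and C3 did. Atf3 was at 2092 and 1923 CPM in Cd209a-positive dendritic cells, Hspa1a at 1141 and 1088 CPM and Id3 at 940.2 and 1211 CPM, and the part of free RNA in their ratios was not tested. Lower in the IPA library were Ms4a6c (76.2 and 32.0 CPM), Ifitm3 (117 and 57.3 CPM), Slpi and S100a11 (280.1 and 215 CPM). Slpi, a protease inhibitor, stood at 121 and 61.2 CPM, with 51 UMIs of it in 1 member. Ifitm3 was seen in 27 and 28 members, and 30 of its 161 UMIs in the CCl4 library lay in 1 member. With at least 2 of the 4 alternative markers required, its log2 ratio was -0.25, within 1.5-fold. Higher was Ccl5, with 141 and 242 CPM. However, 164 of its 249 UMIs in the IPA library came from 1 member, and without the highest member of each library the log2 ratio was -0.00303. Pdia4, Edem1 and Cebpb lay between ratios of 0.96 and 1.52.

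The same genes were then read in other cell classes of these libraries, which share the tissue and preparation of each group. The classes differ in depth, with median UMIs per cell of 6802 and 5938 in members and 2837.5 and 2379.5 in B cells. T cells had 4073.5 and 3301 and monocytes or macrophages 7439.5 and 6393. The 12 highest genes of members were all above 1 in B cells, T cells and NK or ILC1 cells as well, and 8, 7 and 8 of them passed 1.5-fold there. In monocytes or macrophages 10 of 12 were above 1 and 6 passed 1.5-fold. Over all measured genes the median log2 ratio was 0.28 in B cells, 0.28 in T cells, 0.21 in NK or ILC1 cells and 0.15 in monocytes or macrophages. Atf3 stood at 3.39 in members, 1.47 in B cells (1.35 to 1.598), 1.10 in T cells (0.969 to 1.26) and 1.07 in monocytes or macrophages (1.01 to 1.13). Plaur stood at 2.89 in members, 1.73 in B cells (1.53 to 1.97) and 1.802 in monocytes or macrophages (1.496 to 2.17). For both genes the members' intervals lie above those of B cells and of monocytes or macrophages. However, both were named for high ratios in members, which favours lower ratios elsewhere, so this does not show a difference particular to members. The intervals count UMIs as independent, while the Atf3 UMIs lay in 36 and 51 members. In the double-positive cells Plaur stood at 162 and 375 CPM, a ratio of 2.32 (1.81 to 2.98), and in T cells its ratio was 1.99 (1.08 to 3.80), both overlapping the members' interval.

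Lars2 was low in every class, at 0.312 in members, 0.184 in B cells, 0.203 in T cells and 0.258 in monocytes or macrophages. H1f4 was likewise low, from 0.289 in the double-positive cells and 0.296 in members to 0.563 in neutrophils. So both differed in every class compared. Of the 12 lowest genes, 7 were below 1 in B cells and 9 in the double-positive cells. Of the 12 highest, 9 passed 1.5-fold in the double-positive cells, but Atf3 stood there at 334 and 351 CPM, a ratio of 1.05 (0.844 to 1.30).

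**Figure D3:**
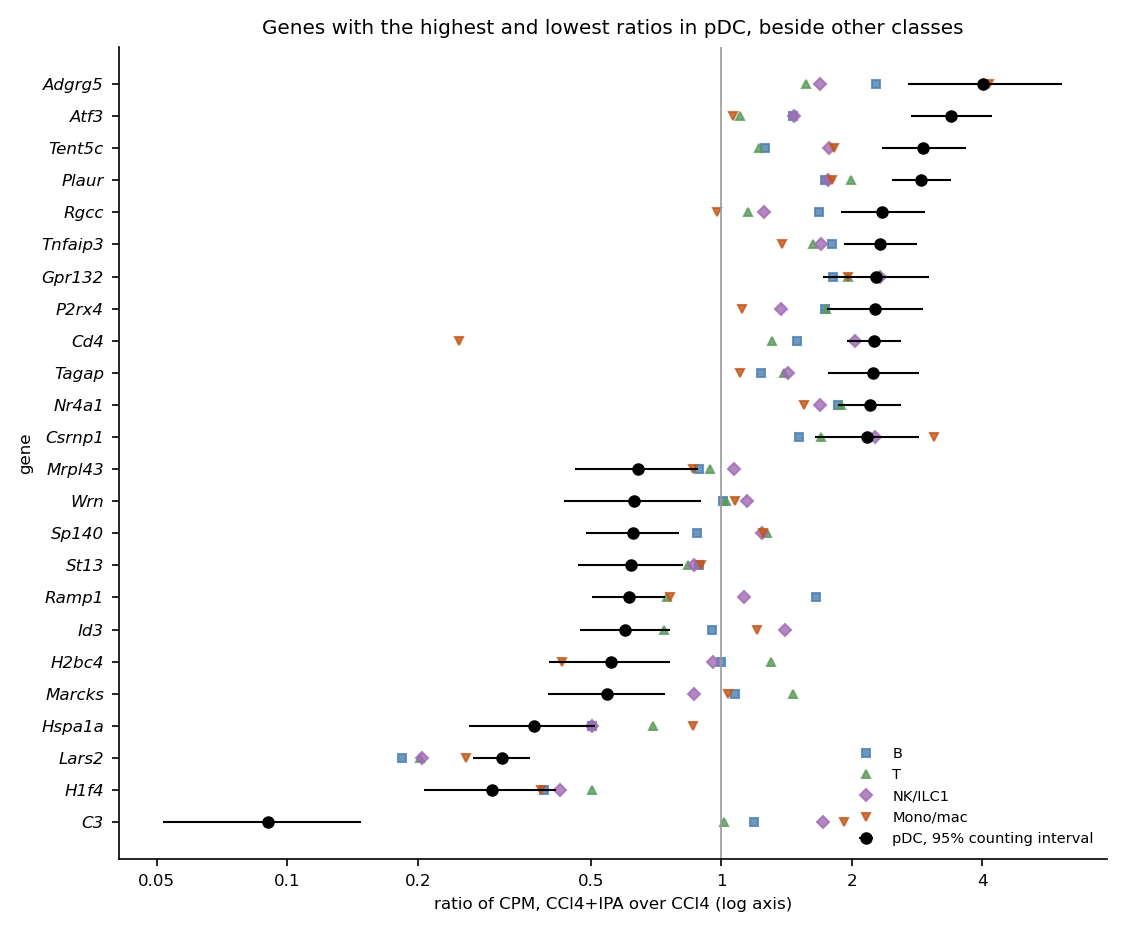
Ratio of CPM, CCl4+IPA over CCl4 (x axis, log), for the 12 highest and 12 lowest genes of members. Black points are members with the 95% counting interval, and coloured points are 4 other classes of the same libraries. Atf3 at 3.39 lies right of the 4 other classes (at most 1.47), Gpr132 at 2.27 lies among them, and C3 lies far to the left at 0.0903.

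For 11 of the 12 highest genes a promoter was given in the RefSeq table of GRCm38.p6, from 250 bases before to 50 after the start of a gene. The AP-1 motif TGANTCA, searched on both strands, was present for 3 of them (Plaur, Tnfaip3 and Csrnp1), against 7.81% of all 32851 promoters in the table. The NF-kB motif, searched by its usual degenerate form on both strands, was present for 4 (Rgcc, Tnfaip3, Gpr132 and Nr4a1), against 8.46% of promoters. Of 8 lowest genes with a promoter, none held the AP-1 motif and 1 the NF-kB motif (Hspa1a). The cyclic AMP response motif TGACGTCA, the serum response motif and the heat shock motif, present in 1.79%, 1.63% and 0.603% of all promoters, were found for none of the highest or lowest genes. A gene with several promoters was counted if any held the motif, so its counts are per gene while the shares of all promoters are per promoter. A match is a match of letters only. The promoters of Tnfaip3 and Plaur are shown as examples, the first with both kinds of match and the second with an AP-1 match. Capitals mark AP-1 and NF-kB matches in Tnfaip3 (chr10:19015361-19015660, minus strand) and the AP-1 match in Plaur (chr7:24462233-24462532, plus strand), each written 5′ to 3′ along the gene.
Tnfaip3: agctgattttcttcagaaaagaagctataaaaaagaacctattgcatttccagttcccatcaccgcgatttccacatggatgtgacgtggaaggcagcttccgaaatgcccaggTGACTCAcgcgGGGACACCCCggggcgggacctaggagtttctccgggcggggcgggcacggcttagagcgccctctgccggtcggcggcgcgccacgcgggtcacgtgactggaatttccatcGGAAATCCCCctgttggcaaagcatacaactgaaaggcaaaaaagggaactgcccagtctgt
Plaur: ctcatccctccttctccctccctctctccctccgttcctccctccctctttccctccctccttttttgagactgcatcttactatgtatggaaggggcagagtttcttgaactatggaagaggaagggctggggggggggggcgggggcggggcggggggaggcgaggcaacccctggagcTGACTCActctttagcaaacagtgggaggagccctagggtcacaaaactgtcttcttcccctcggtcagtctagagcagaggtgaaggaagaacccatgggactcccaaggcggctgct

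Identity genes were mostly within 1.5-fold between the libraries. Of 30 identity genes outside the rule, 5 were past 1.5-fold higher in the IPA library, none lower, and the median log2 ratio was 0.29. The 5 of 30 are close to the 15.8% of all measured genes. With the all-gene median set to 0 the counts were 2 and 1. The 5 were Rpgrip1 (535 and 1011 CPM, 1.89-fold, 1.72 to 2.08), Ly6a or Sca-1 (953 and 1665 CPM, 1.75-fold, 1.63 to 1.88), the checkpoint receptor Lag3, the ephrin receptor Epha2 and the growth factor Grn. Epha2 did not keep its direction in 1 random draw of members to 1000 UMIs, at a log2 of -0.0947. As a share of members thinned to 1000 UMIs it kept it, at 8.91% (5.37 to 13.7%) and 14.8% (10.0 to 20.8%), with overlapping intervals. Cd209d had the lowest ratio at 0.707, from 212 and 112 UMIs. Of the 11 measured lineage transcription factors, 2 were past 1.5-fold higher (1 with the all-gene median set to 0), none lower, and the median was 0.32. Spib, an Ets factor that supports interferon production, stood at 369 and 646 CPM, and Bcl11a, which acts upstream of Tcf4, at 731 and 1139 CPM. Tcf4 had a ratio of 1.33, Irf8 1.25, Runx2 1.18 and Zeb2 1.01.

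Of 6 measured factors of conventional dendritic cells, 1 was past 1.5-fold higher (Relb, 26 and 35 UMIs) and 1 lower (Id2, 56 and 25 UMIs, 24 of them in 1 member). Their median was 0.12. Id2 lay the other way after thinning to 1000 UMIs, at a log2 of 1.96.

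The sensing machinery was present in both libraries. Tlr7, the receptor for single-stranded RNA, stood at 157 and 174 CPM and Unc93b1, which carries these receptors to the endosome, at 543 and 731 CPM. Tlr9, the receptor for CpG DNA, had only 7.98 and 4.86 CPM and was detected in 5.37% and 2.72% of members, which at this depth is near the limit of detection. Of 19 measured sensing genes, 4 were past 1.5-fold higher in the IPA library and none lower, beside 15.8% and 4.28% of all genes. The median was 0.34. With the all-gene median set to 0 the counts were 2 and 2. The 4 were Tlr12, a receptor for profilin (75 and 110 UMIs), the kinase Irak1 (105 and 120), the adaptor Traf3 (26 and 36) and the nuclease Pld3 (14 and 17). Irf7, the master factor of interferon production, had a ratio of 1.26 (1.07 to 1.49). Hmgb1, a nuclear alarmin, had 0.734, short of 1.5-fold.

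The inhibitory and adaptor receptors were nearly level. None of 15 measured genes passed 1.5-fold in either direction, and the median of 0.13 lay below that of all genes. Bst2 had a ratio of 1.02 (0.979 to 1.07), the ITAM adaptor Tyrobp 1.09 and the phosphatase Ptpn6 1.05. The receptor phosphatase Ptprs was closest to the limit, at 328 and 481 CPM.

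Interferon genes themselves were close to silent. Of 20 type I and III interferon genes, 6 had any UMI in members. Ifna2 had 17 UMIs in 3 members of the CCl4 library, 13 of them in 1 cell, and 4 UMIs in 1 member of the IPA library. Ifna16 had 5 UMIs in 2 members and 4 UMIs in 1 member. Interferon alpha genes are near-identical copies, so their reads can be assigned to a neighbour. Ifnb1 had no UMI in members of either library, which allows a share of members with a UMI of up to 1.46% and 1.63% (3 counts of the members), although 175 and 22 UMIs lay in all kept barcodes of the libraries. At these numbers a difference between the libraries in interferon-positive members was not detectable.

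Genes that answer interferon were measured better. Of 12 receptor and signal transducer genes, 1 passed 1.5-fold higher in the IPA library (Stat2, 136 and 218 CPM) and none lower, with a median of 0.43. With the all-gene median set to 0 none passed. The receptor chain Ifnar1 and the kinase Jak1 had ratios of 1.47 and 1.46. Of 25 measured interferon-stimulated genes, 5 passed higher and 2 lower, with a median of 0.25, beside 15.8% higher and 4.28% lower over all genes. With the all-gene median set to 0 the counts were 2 and 2. Ifit2 (28 and 56 UMIs, 19 of the latter in 1 member), Mx1 (44 and 52), Mx2 (21 and 35), Ifi44 (76 and 93) and Stat2 were higher, and Ifitm3 and Ifit1 lower. Ifitm3 was within 1.5-fold, at a log2 of -0.25, with at least 2 of the 4 alternative markers required. Ifit1 had 31 and 12 UMIs, 16 of them in 1 member, and without barcodes marked by Scrublet its log2 ratio was 2.95. The more abundant genes of the list had smaller ratios. Ifi27l2a stood at 1175 and 1327 CPM and Trim30a at 351 and 465 CPM.

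Secretory genes were high and nearly level. Of 27 measured, 3 passed higher and none lower, with a median of 0.21. With the all-gene median set to 0 the counts were 1 and 0. Xbp1, the factor that builds the secretory apparatus, stood at 344 and 558 CPM, 1.62-fold higher (1.44 to 1.84). Ddit3 (CHOP) and Edem1, a factor that clears misfolded proteins, were the others. The chaperones Hspa5 and Hsp90b1 had ratios of 1.11 and 1.18, and the translocon subunit Sec61b 1.07.

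Antigen presentation genes of class II were nearly level. Of 12 class II genes, 1 passed higher (H2-DMb2, 31 and 39 UMIs) and none lower, and the median of 0.09 lay below the all-gene median (none passed with that median set to 0). Cd74, the invariant chain, stood at 4849 and 5549 CPM and H2-Aa at 2192 and 2347 CPM. Class I and immunoproteasome genes had a median of 0.30, and with the all-gene median set to 0, 1 passed higher and none lower. Uncentred, 3 of 13 passed higher and none lower, beside 15.8% and 4.28% of all genes. They were Nlrc5, the class I transactivator (23.2 and 53.4 CPM), the peptide transporter subunit Tap1 (121 and 201 CPM) and its partner Tapbp (285 and 463 CPM). Psmb10, an immunoproteasome subunit, had a ratio of 0.751.

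Of 12 costimulation and maturation genes only 6 were measured, with a median of -0.08. Ccr7, the receptor for lymph node entry, had 10 and 39 UMIs in 4.88% and 11.4% of members, a ratio of 5.22 (2.56 to 11.7). Thinned to 2000 UMIs, 2.63% (0.860 to 6.03%) and 4.82% (2.10 to 9.27%) of members held a Ccr7 UMI, with overlapping intervals, against 68.2% and 78.0% of B cells. Ccr7 is therefore open to free RNA, and its part in the ratio was not tested. It was the only gene of this list past 1.5-fold, and with the all-gene median set to 0 a further 2 were lower. Cd83 had 28 and 31 UMIs and Cd86 22 and 11.

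Among 15 measured chemokine receptors and trafficking genes, 3 passed higher and none lower, beside 15.8% and 4.28% of all genes. The median was 0.28. Cxcr4, the receptor for bone marrow retention, stood at 168 and 337 CPM, 2.01-fold higher (1.70 to 2.38), and Klf2, which maintains circulation, at 1665 and 2828 CPM, 1.70-fold higher (1.61 to 1.79). Ccr7 was the third. Ccr2, the receptor for monocyte chemoattractants, went the other way at 158 and 111 CPM, as did Gpr183, the oxysterol receptor, at 153 and 107 CPM, neither past 1.5-fold unless the all-gene median was set to 0 (3 higher and 2 lower). Thinned to 1000 UMIs, Ccr2 was seen in 14.4% (9.83 to 20.0%) and 7.69% (4.27 to 12.6%) of members, with overlapping intervals, and in 0.488% and 0.618% of B cells.

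Chemokines were the most abundant effector products. Ccl4 (MIP-1 beta), an inflammatory chemokine, stood at 4244 CPM in the CCl4 library and 7588 CPM in the IPA library, 1.79-fold higher (1.73 to 1.85). NK or ILC1 cells held 5011 and 5468 CPM of it and B cells 109 and 305 CPM. Ccl3 stood at 232 and 454 CPM, 1.96-fold higher (1.69 to 2.26). The shares of thinned members with a Ccl4 UMI were close, 75.7% (69.2 to 81.5%) and 78.6% (71.9 to 84.3%), against 4.43% and 10.2% of B cells. The higher level was thus seen in UMIs per cell more than in the number of cells. Of 9 measured cytokines, chemokines and effectors, 3 passed higher (Ccl3, Ccl4 and Ccl5) and 1 lower (Il12a, 25 and 9 UMIs), with a median of 0.24 and the same counts when the all-gene median was set to 0. Tnf had 78 and 69 UMIs, and Il6 and Il12b had none.

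Cytokine and growth factor receptors had a median of 0.26, and with the all-gene median set to 0, 1 passed higher and none lower. Uncentred, 3 of 14 measured passed higher and none lower, beside 15.8% and 4.28% of all genes. They were the GM-CSF receptor chain Csf2ra (46 and 57 UMIs), the IL-3 receptor chain Il3ra (30 and 40) and the common gamma chain Il2rg (93 and 107). Flt3, the receptor for the growth factor on which the lineage depends, stood at 131 and 192 CPM with a ratio of 1.46 (1.19 to 1.801).

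Genes of NF-kB signalling and its feedback had a median of 0.34. Of 17 measured, 6 passed higher and none lower, beside 15.8% and 4.28% of all genes. Besides Tnfaip3 they were the inhibitor of apoptosis Birc3 (63.8 and 136 CPM, 2.13-fold), the nuclear inhibitors Nfkbid (89.2 and 184 CPM, 2.06-fold) and Nfkbiz (269.9 and 497 CPM, 1.84-fold), Nfkb2 (32 and 48 UMIs) and Relb. The subunits Rel and Rela had ratios of 1.01 and 1.02. All 6 were still past 1.5-fold when the all-gene median was set to 0, with 1 lower.

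Of 26 immediate early and dissociation stress genes, 8 passed higher and 1 lower, beside 15.8% and 4.28% of all genes. Their median was 0.36, and with the all-gene median set to 0 the counts were 7 and 2. Egr1 stood at 219 and 464 CPM, 2.12-fold higher (1.83 to 2.45), Fosb at 1308 and 2387 CPM, 1.82-fold (1.72 to 1.94), and the mRNA-decay factor Zfp36 at 1150.0 and 1950 CPM, 1.70-fold. Atf3, Nr4a1, Nr4a3, Junb and the phosphatase Dusp5 were the others. Fos and Jun, the most abundant of the list, had ratios of 1.25 and 1.17. Hspa1a was the member past 1.5-fold lower, and Hspa1b (141 and 95.2 CPM) and Hsp90aa1 (641 and 529 CPM) lay in the same direction. Many of these genes are known to respond to enzymatic dissociation, and the part of tissue handling in these values was not tested.

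IPA is known as a ligand of the aryl hydrocarbon and pregnane X receptors. Ahr had 90 and 66 UMIs in members, with a ratio of 0.981 (0.703 to 1.36). The classical targets Cyp1a1, Cyp1b1 and Ahrr and the pregnane X receptor gene Nr1i2 had no UMI in members of either library. Of 8 measured genes of this list, 1 passed 1.5-fold higher and none lower, and the median was -0.14. With the all-gene median set to 0, 1 was higher and 1 lower. Tiparp, an aryl hydrocarbon receptor target, had a ratio of 1.06 (0.770 to 1.45).

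Of 11 measured survival and death genes, 2 passed higher and none lower, with a median of 0.04 and the same counts when the all-gene median was set to 0. They were the proapoptotic Bcl2l11 (BIM), at 67.5 and 135 CPM, 2.00-fold higher (1.53 to 2.63), and Bbc3 (PUMA), with 22 and 28 UMIs. Bcl2, the survival factor of this lineage, had 32 and 20 UMIs. Of 16 lysosomal genes, 2 passed higher (Psap, 2604 and 4101 CPM, and Grn) and none lower, with a median of 0.27 (none with the all-gene median set to 0). Cathepsins Ctsl, Ctsb and Ctsh were nearly level, with ratios of 0.971, 1.11 and 1.03.

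Cell cycle and linker histone genes had the lowest medians. Of 8 measured cell cycle genes 5 were past 1.5-fold lower in the IPA library and none higher, with a median of -1.33 (6 lower with the all-gene median set to 0). However, 7 proliferation genes (Mki67, Top2a, Birc5, Stmn1, Cdk1, Ccnb1 and Ccnb2) had 282 UMIs in the CCl4 library, of which 113 and 109 lay in single members, and 39 in the IPA library. At least 3 of their UMIs were held by 4 of 205 members (1.95%, 0.534 to 4.92%) and 2 of 184 (1.09%, 0.132 to 3.87%). The intervals of these shares overlap. After thinning to 1000 UMIs, none of the measured cell cycle genes was past 1.5-fold lower and 1 was higher. Thinning leaves few UMIs of these genes, and the number still measured is not given here. These counts therefore cannot be set against the 5 of 8. Of 5 measured linker histone genes, 3 were past 1.5-fold lower (H1f4, H1f3 and H1f5) and none higher, beside 4.28% and 15.8% of all genes. Their median was -0.65, with the same counts when the all-gene median was set to 0.

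**Figure D4:**
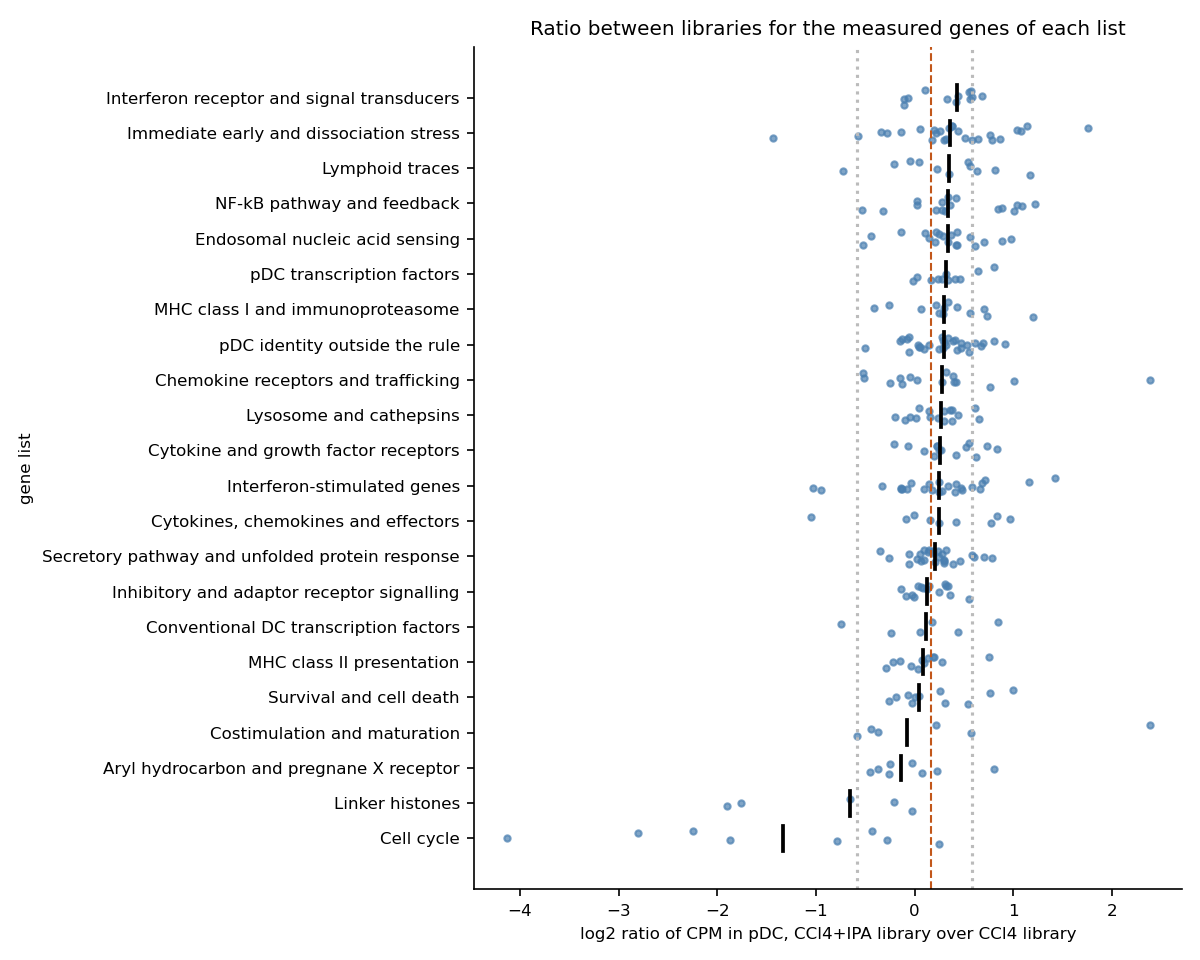
Log2 ratio of CPM in members, CCl4+IPA over CCl4 (x axis), for each measured gene (points) of 22 gene lists (rows), with the list's median as a black bar. The dashed line is the all-gene median of 0.17 and the dotted lines are 1.5-fold either way. Most lists lie around the dashed line, and cell cycle and linker histone genes lie left of it.

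Members also differed among themselves. The variance over mean of UMIs per member, after thinning to 1000 UMIs, had a median of 1.03 and 1.04 over 2530 genes, close to the value of 1 that counting noise alone gives. Ccl4 reached 5.29 and 8.98. Other genes with high values in both libraries were Fos (3.19 and 3.12), Jun (2.9998 and 2.77), Cd74 (2.88 and 2.81), Fosb (2.48 and 3.11), Rgs1, a regulator of chemokine receptor signalling (2.42 and 2.62), and Ccl3 (2.34 and 3.73). Ccl5 (4.47 and 15.1) had 81 of 195 and 164 of 249 UMIs in single members. Klk1, Klf4 and Ifi27l2a followed, with values between 2.21 and 2.82. Rn18s-rs5, Malat1, Tmsb4x and the gene model Gm26532 complete the 15 highest.

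The spread of Ccl4 was wide in both libraries. Thinned to 2000 UMIs, which kept 190 and 166 members, Ccl4 ranged from 0 to 56 UMIs per member with a median of 5 in the CCl4 library and from 0 to 63 with a median of 9.5 in the IPA library. At least 20 UMIs were held by 22 and 54 members, and none by 17.4% and 14.5%. The 10% of members with the most held 35.6% and 33.4% of the Ccl4 UMIs. Atf3 had no UMI in 93.2% and 77.7% of members. Such shares vary with the random draw: in another draw to 2000 UMIs, 10.5% (6.55 to 15.8%) and 18.1% (12.5 to 24.8%) of members held an Atf3 UMI, with overlapping intervals. Ly6c2 had medians of 2 and 4 UMIs and Ly6a of 2 and 3.

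**Figure D5:**
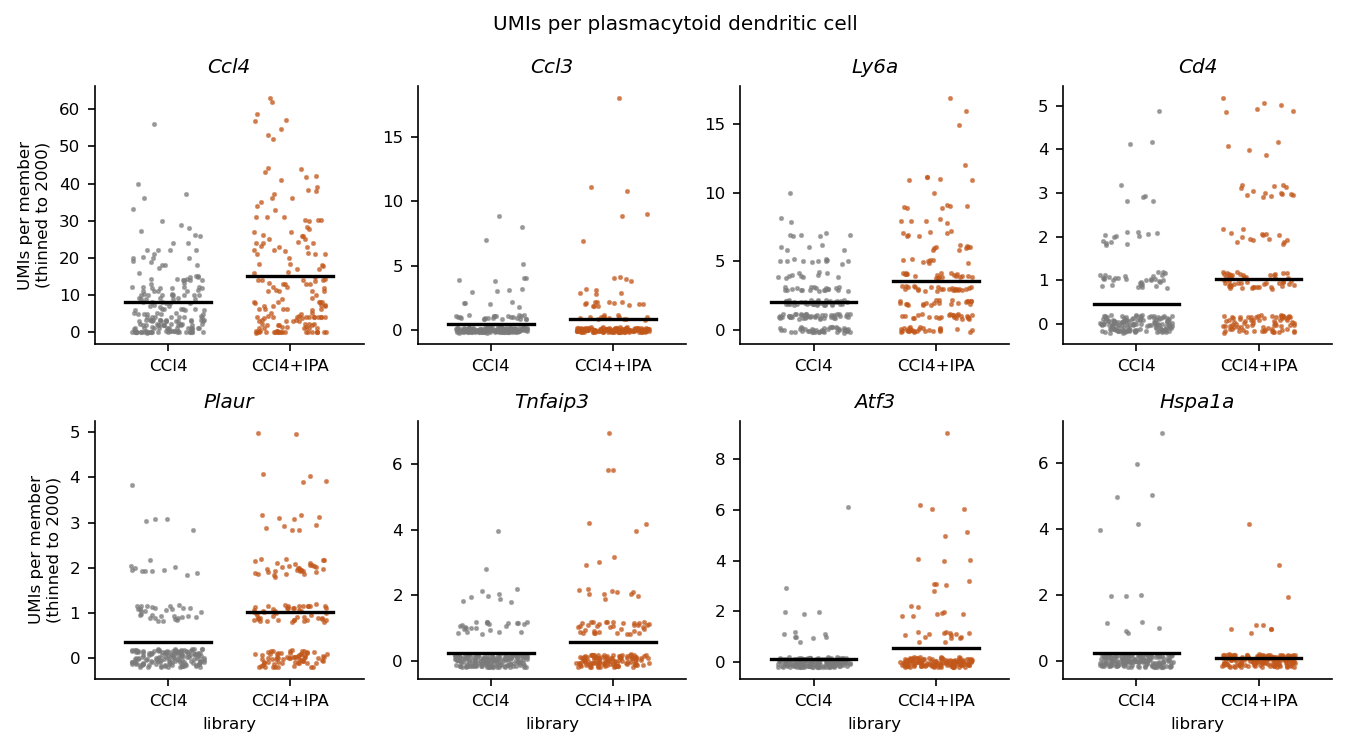
UMIs of 8 genes in each member after thinning to 2000 UMIs (points, y axis, with small random shifts), by library, with the mean as a bar. Ccl4 spreads from 0 to 56 and from 0 to 63, no UMI of Cd4 was held by 71.6% and 45.2% of members, none of Plaur by 75.3% and 40.96%, and none of Atf3 by 93.2% and 77.7%.

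Across members thinned to 2000 UMIs, pairs of genes that varied together fell into a few groups. Spearman's correlation was computed within each library, over 190 and 166 members that share a library, for 808356 pairs of 1272 genes. It reached 0.4 in both libraries in 16 pairs. Class II genes formed the tightest group, with H2-Ab1 and H2-Aa at 0.68 and 0.71, H2-Aa and Cd74 at 0.67 and 0.71, and H2-Eb1 and Cd74 at 0.63 and 0.64. Immediate early genes formed the other, with Jun and Fos at 0.58 and 0.65, Jun and Fosb at 0.57 and 0.62, Klf2 and Fos at 0.53 and 0.55, and Rgs1 and Jun at 0.46 and 0.44. Ccl3 and Ccl4 reached 0.43 and 0.37. These are descriptions across cells of 1 library each.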

How the data were processed

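Per the labels' protocols, dissociated mouse liver cells went through the Chromium 3′ kit (V3) and Illumina sequencing. The deposited values are UMI counts per gene and barcode, written by Cell Ranger 7.1.0 per the file headers. The submitters' processing notes name the build mm9. The labels and headers do not state how intron reads were treated. Together the libraries held 10427 and 10471 barcodes and 45009730 and 37983923 UMIs (CCl4, CCl4+IPA), and members summed to 1378267 and 1029815 UMIs. The kept barcodes had median mitochondrial shares of 3.52% and 1.78%.

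Members' counts were summed per library and divided by their total (CPM). Shares have exact Clopper-Pearson intervals, CPM exact Poisson intervals and ratios exact conditional binomial intervals, all at 95% and for counting error only. A gene was measured with at least 30 UMIs over both libraries, and past 1.5-fold or, between classes, 4-fold in both libraries. In folds, a floor of 3 UMIs (2.18 and 2.91 CPM in members) stood in for a count of 0 only. Counts of 1 or 2 UMIs entered as they were. Named were the 12 highest and 12 lowest ratios (at least 100 UMIs and 50 CPM in the higher library; mitochondrial, ribosomal, haemoglobin, immunoglobulin and T cell receptor genes, unnamed gene models, sex-linked and rule genes left out), the 20 highest folds over other classes, up to 8 genes per list with the most UMIs or past 1.5-fold, and the rule genes. Some other genes are named after their values were seen. Members, lists and comparisons were chosen with earlier results of these data known. No doublet was removed; Scrublet in scanpy 1.11.5 marked 278 and 331 barcodes, and leaving them out is an alternative. Python 3.11.15, numpy 2.4.6, scipy 1.17.1 and pandas 2.3.3 were used, and the scripts were tested on simulated data. Alternatives changed the rule, the scaling, the weight of cells and the count minimum. Values of a few genes are not reported here.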

Additional observations from a re-analysis of the deposited data

How the results depend on the processing

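The members' share in the CCl4 library was 4.52% with no gene required to be absent and 2.67% when barcodes were thinned to 1000 UMIs before the rule, against 1.99%. In the IPA library it was 3.69% and 2.30%, against 1.76%. Genes at least 1.5-fold higher in the IPA library (1189) numbered 628 when centred on the all-gene median, 602 with mitochondrial and ribosomal genes left out of the total, 427 with members thinned to 1000 UMIs, 402 with at least 100 UMIs and 2011 with at least 10 UMIs. Genes at least 1.5-fold lower (323) numbered 606, 625, 109, 65 and 839 under the same settings, and 556 with no gene required to be absent. Thinning, the rule and the UMI minimum also change how many genes are measured. Those numbers are not given here, so such counts are not to be read as shares of the 7542 genes. At least 8-fold higher in members than in the double-positive cells, the Cd209a-positive dendritic cells and B cells were 0, 149 and 395 genes, and with at least 100 UMIs 0 genes were 4-fold over the first and 464 over B cells. Reversed log2 ratios were C3 at 0.42 and Dcn at 0.52 with no gene required to be absent, and Ifit1 at 0.15. Ifit1 was at 2.95 without Scrublet calls. After thinning to 1000 UMIs, in 1 random draw, Epha2 was at -0.0947, Id2 at 1.96 and Id3 at 0.21. Without the highest member of each library, an alternative chosen after seeing the data, C3 was at 1.42 and Ccl5 at -0.00303. The cause was not tested. Among values of single genes under the alternatives, 873 lay within the counting interval of the reported ratio, 75 lay outside it and 9 reversed a ratio past 1.5-fold. No paired analysis was possible because each group has 1 library. Depth and the single library per group limit all of these values: the intervals hold no variation between animals.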
